A study of Homo sapiens with 33 samples.

Results

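The genes described here build and control the mitotic spindle: the kinetochore and centromere, the spindle checkpoint, the mitotic kinases, the condensin complex and the machinery of cytokinesis. A list of 56 such genes was matched by symbol to the array annotation. Of these, 54 had 1 probe set or more and are described, out of 11963 named genes on the array; NUF2 and ANLN had none and have no value. Their 83 probe sets were measured on 33 arrays in 11 groups of 3.

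The cells were 2 human lines of ALK-positive anaplastic large cell lymphoma, a T-cell lymphoma: TS (derived from Sup-M2) and Su-DHL1. In these tumours the tyrosine kinase ALK is switched on by fusion to another gene and drives growth. In 7 groups, 21 arrays, the cells carried a lentiviral hairpin RNA controlled by doxycycline, with DsRed and GFP as sorting markers, and had passed 2 rounds of sorting. The A5 hairpin is directed at ALK, and A5M is its mutated control. TS cells with A5 were taken at 84 h and at 72 h, with doxycycline at 1 microg/ml (induced) or without it (uninduced). A5M was induced in TS cells for 84 h. In Su-DHL1 cells, A5 was induced for 72 h or left uninduced. The mutated hairpin was run in TS cells at 84 h only, so in the other settings the hairpin and doxycycline itself cannot be told apart. In 4 further groups, 12 arrays, TS cells were exposed for 6 h to 300 nM of a compound (A1, A2 or A3) or served as group U. A2 and A3 are ALK inhibitors derived from pyrrolocarbazole. A1 is the mock compound in the design text and an ALK inhibitor in the sample descriptions, and U is called untreated in 1 place and diluent in the other. The labels do not say that arrays of a group came from separate cultures, so the tests measure the spread between these arrays, which may be technical.

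At mitosis, centromeres carrying the histone variant CENPA assemble a kinetochore, whose outer NDC80 complex holds microtubules. Kinetochores without attachment recruit BUB1, BUB1B, BUB3, MAD2L1 and the kinase TTK, which hold back CDC20 and the anaphase-promoting complex until every chromosome is attached. Securin (PTTG1) is then destroyed and separase (ESPL1) parts the chromatids. Transcripts of most of these genes build up in the later part of the cell cycle, under FOXM1, MYBL2 and the complexes that bind the CHR promoter element, so dividing cells carry far more of them than resting cells.

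The values are MAS5 signals, which measure the brightness of each probe set, and array medians lay between 54.8 and 69.5. Tests used log2 of the signal plus 11, with limma. Fold changes are on that scale, which understates the change of genes with low signal. A gene is called at an adjusted p below 0.05 (Benjamini-Hochberg over all genes tested). Arrays of a group correlated at 0.96 to 0.98 over the genes tested. ALK itself, the target of the hairpin, fell from a signal of 2039 ± 97.2 (SD, n = 3) to 248 ± 44.2 in TS cells at 84 h, from 1823 ± 19.1 to 330.2 ± 52.4 at 72 h, and from 2966 ± 219 to 637 ± 12.3 in Su-DHL1 cells. Among markers of the labelled lymphoma, TNFRSF8 (CD30) had group means of 188 to 2217 and GZMB 856 to 5291, whereas CD4 stayed at 31.2 to 53.5. The 4 measured B-cell markers summed to 122 to 187 per group and the 6 epithelial and stromal markers to 245 to 485. The 4 myeloid markers summed to 93.1 to 539, most of it CSF1R (64.1 to 490.1), which was high with the hairpin, while CD14 and LYZ were at or below 10.2.

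The ratio of 3' to 5' signal of the ACTB control probe sets, a measure of RNA integrity, moved with the groups. It averaged 1.27 in induced and 1.54 in uninduced TS cells at 84 h, 1.52 with A5M, 1.32 and 1.59 at 72 h, and 1.36 and 1.39 in Su-DHL1 cells. In the inhibitor experiment A2 and A3 gave 1.05 and 1.06, and A1 and U gave 1.33 and 1.18. With this ratio in the model as a covariate, 49 of the 54 genes were called in the average hairpin response and 30 with A2 over A1, against 51 and 42 without it, while the median log2 fold changes were -1.24 and 0.65 with it and -1.27 and 0.65 without.

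Almost the whole set fell where the ALK hairpin was induced. In the average over the 3 settings, 51 of the 54 genes fell and none rose, with a median log2 fold change of -1.27, while the median over all 9097 genes tested was 0.07 and 21.7% of them were called lower. On the probe sets chosen, CENPM (-1.77), AURKB (-1.71), SPC25 (-1.66), MKI67 (-1.66) and TACC3 (-1.65) had the largest falls. The further probe sets of MKI67, which were not tested, gave smaller falls, of -0.73 to -0.99. The genes that were not called were CENPI (-0.10), CKAP2 (-0.23) and INCENP (0.18). CKAP2 depended on the settings. It was called lower without uninduced TS replicate 3 at 84 h, without induced Su-DHL1 replicate 2 and without uninduced Su-DHL1 replicate 3. It was also called lower with only the compared groups in the fit (adjusted p = 0.0293 to 0.045 over these alternatives by limma). With the ACTB ratio as a covariate its change was above 0 instead. Since the arrays hold RNA of whole cultures scaled to a common total, fewer dividing cells and less of these RNAs per cell cannot be told apart.

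**Figure D1:**
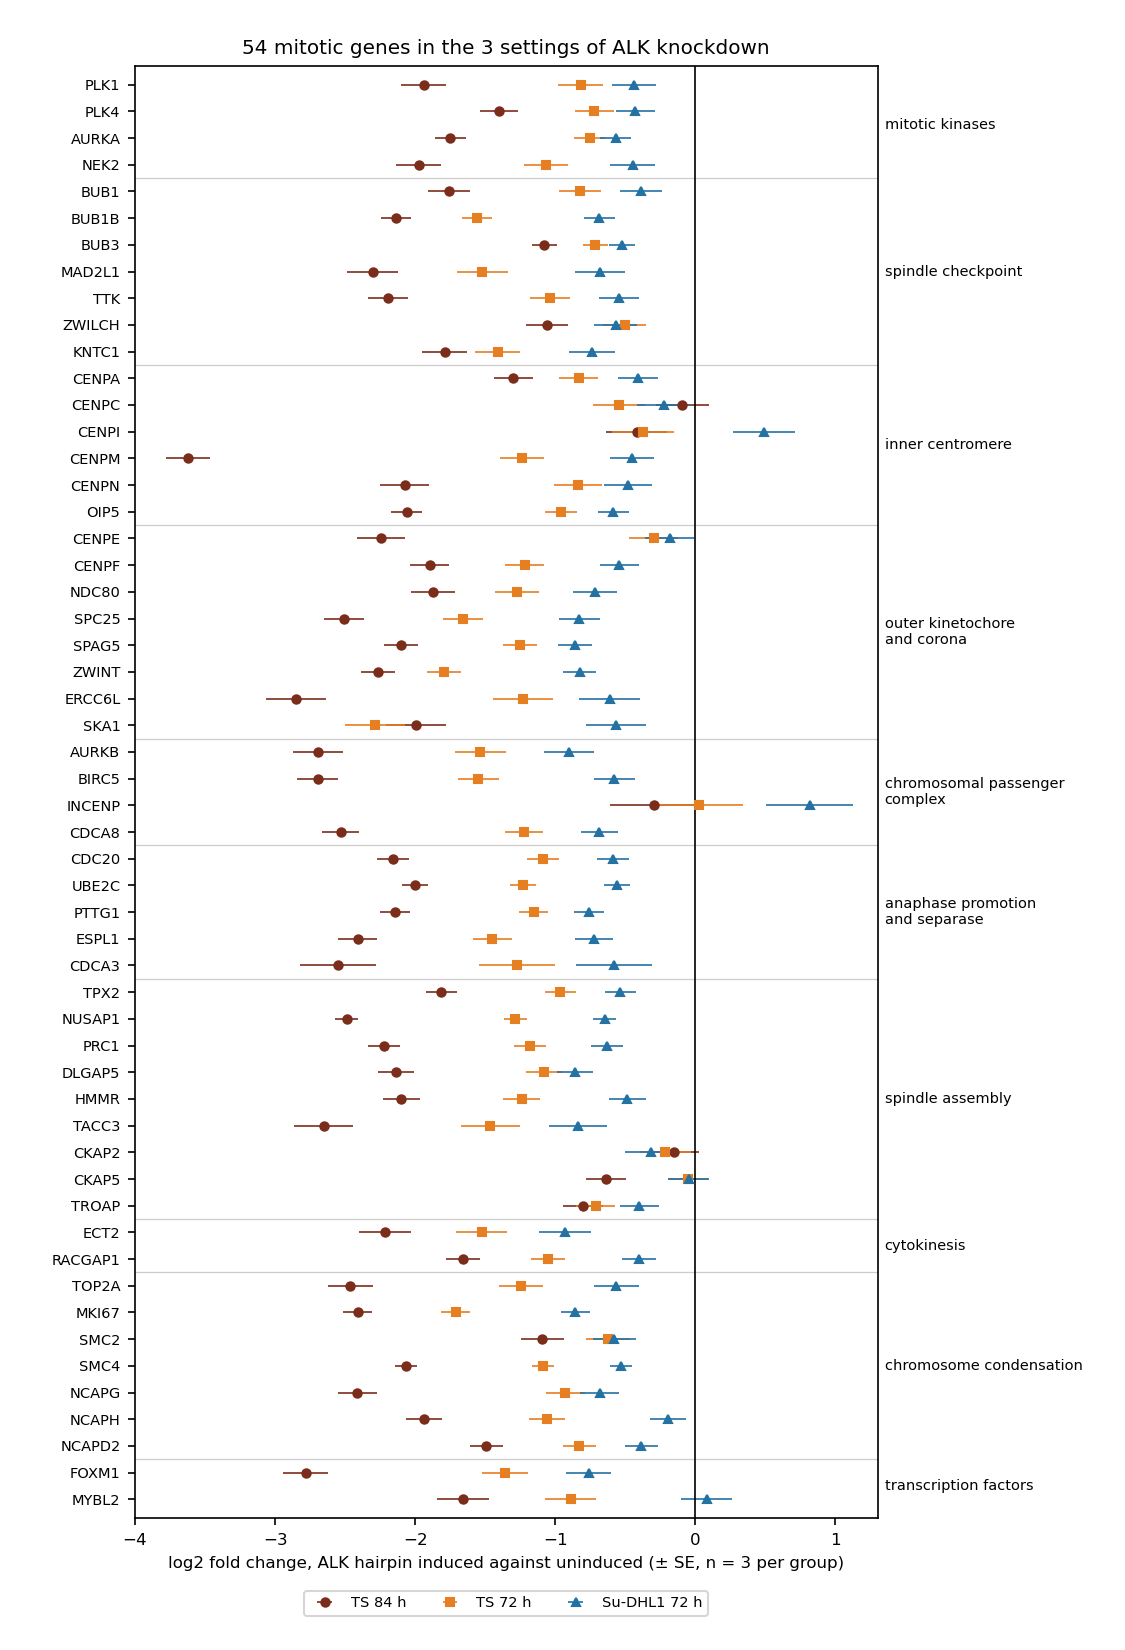
Log2 fold change (± SE, n = 3 arrays per group) of each of the 54 genes, induced against uninduced A5, with genes grouped by role on the vertical axis and 1 symbol per setting. The circles of TS cells at 84 h lie farthest to the left for most genes, at a median of -2.07, the squares of TS cells at 72 h at -1.09 and the triangles of Su-DHL1 cells at -0.57.

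All 4 mitotic kinases fell in each setting. NEK2, which helps centrosomes to separate, gave signals of 168, 144 and 144 on the induced arrays of TS cells at 84 h and 670.0, 538 and 688 on the uninduced ones. PLK1, a kinase needed at nearly every step of mitosis, gave 93.1, 94.4 and 84.9 against 462, 352 and 334. Neither gene's groups overlapped, and the log2 fold changes were -1.98 ± 0.16 (SE) and -1.94 ± 0.16. At 72 h NEK2 stood at 244 to 267 induced and 544 to 555 uninduced in TS cells and at 292 to 356 and 428 to 482 in Su-DHL1 cells, the smallest gap of the 3 settings. AURKA, which matures the spindle poles, and PLK4, which starts centriole duplication, changed by -1.75 and -1.40 in TS cells at 84 h.

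The 7 spindle checkpoint genes all fell in the average, with log2 fold changes of -0.71 (ZWILCH) to -1.50 (MAD2L1). MAD2L1, which binds CDC20 in the checkpoint complex, gave 158, 129 and 141 on induced arrays at 84 h and 940.2, 553 and 797 on uninduced arrays. BUB1B, the checkpoint pseudokinase BubR1, gave 103, 136 and 111 against 603, 585 and 464. The lowest uninduced array of each gene was far above its highest induced array, with log2 fold changes of -2.30 ± 0.18 and -2.14 ± 0.11. In Su-DHL1 cells BUB1B lay at 252 to 267 induced and 389.6 to 461 uninduced (-0.68 ± 0.11). BUB3, which brings BUB1 and BUB1B to the kinetochore, gave 984, 936 and 969 induced and 1906, 2479 and 1813 uninduced at 84 h. Its log2 fold change was -1.08 ± 0.09. The further probe sets of BUB3, which were not tested, changed less, by -0.50, -0.67 and -0.62. In Su-DHL1 cells they differed by -0.08, 0.03 and -0.26, against -0.52 on the chosen one. TTK, the kinase that starts the checkpoint, and KNTC1, part of the complex that recruits dynein, changed by -2.19 and -1.79 at 84 h.

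The centromere proteins were the least even group. CENPM, a subunit of the constitutive centromere network, gave 11.2, 7.9 and 7.4 on induced arrays at 84 h and 281, 258 and 173 on uninduced arrays, so its mean signal was down to 3.73% of the uninduced mean, the lowest share of the 54 genes. At 72 h it kept 81.1, 84.9 and 101 against 207, 235 and 229, and in Su-DHL1 cells 136, 122 and 104 against 176, 164 and 165. The induced signals at 84 h are close to or below the added constant of 11, near the floor of the array. OIP5, which helps to load CENPA, gave 84.2, 105 and 82.8 against 404, 418 and 411 at 84 h (-2.06 ± 0.11). CENPA itself (-1.30) and CENPN (-2.08), which reads CENPA nucleosomes, also fell there. CENPC, the platform that links CENPA chromatin to the outer kinetochore, did not pass the test at 84 h (-0.09 ± 0.19, adjusted p = 0.743 by limma) and did at 72 h (-0.54 ± 0.19, adjusted p = 0.0275). CENPI, which also belongs to the centromere network, had low signals throughout: 28.0, 23.9 and 36.1 induced and 44.4, 36.5 and 47.3 uninduced at 84 h, groups that lie next to each other without a call (-0.42 ± 0.22).

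The 8 genes of the outer kinetochore and its corona all fell in the average. SPC25, a subunit of the NDC80 complex, gave 37.1, 44.6 and 63.6 on induced arrays at 84 h and 339.5, 307 and 318 on uninduced arrays. ZWINT, which ties the checkpoint complex to the kinetochore, gave 162, 204 and 177 against 959, 739.9 and 1058. Both sets of arrays were well apart, with log2 fold changes of -2.51 ± 0.14 and -2.27 ± 0.12. At 72 h in TS cells SPC25 was at 118 to 123 induced and 373 to 435 uninduced, and ZWINT at 314 to 357 and 1011 to 1287. In Su-DHL1 cells their ranges were 185 to 196 and 296 to 385 for SPC25 and 442 to 513 and 779.9 to 904 for ZWINT, closer together than in TS cells but still without overlap. ERCC6L (PICH), a DNA translocase found on threads between sister centromeres, was near the floor at 84 h with 5.6, 16.1 and 20.8 induced against 145, 164 and 186 uninduced (-2.85 ± 0.21). CENPE, the kinesin that carries chromosomes to the spindle equator, gave 31.5, 14.3 and 27.1 against 144, 156 and 157 at 84 h. It was called there (-2.24 ± 0.17) but not at 72 h (-0.30 ± 0.17, adjusted p = 0.21 by limma).

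In the chromosomal passenger complex, which corrects faulty attachments, 3 of 4 genes fell. The kinase AURKB gave 106, 90.3 and 44.9 on induced arrays at 84 h and 632, 522 and 511 on uninduced arrays. BIRC5 (survivin), which docks the complex at the centromere, gave 89.8, 71.7 and 52.9 against 477, 581 and 491. Every induced array lay below every uninduced array, with log2 fold changes of -2.69 ± 0.18 and -2.70 ± 0.15; CDCA8 (borealin) was close to both at -2.53 ± 0.13. INCENP, the scaffold of the same complex, was called in no hairpin comparison and had low, scattered signals, with 58.0, 67.2 and 35.1 on induced and 47.1, 8.9 and 28.4 on uninduced arrays of Su-DHL1 cells. The low array of 8.9 stands apart from the others of its group, and the difference there (0.82 ± 0.31, adjusted p = 0.0597 by limma) was not called.

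The 5 genes of anaphase promotion fell together, with log2 fold changes of -1.26 (UBE2C) to -1.53 (ESPL1) in the average. ESPL1, separase, gave 139, 171 and 168 on induced arrays at 84 h and 1066, 732 and 908 on uninduced arrays (-2.41 ± 0.14). PTTG1, its inhibitor securin, gave 868, 948 and 969.6 against 4154, 4661 and 3661 (-2.14 ± 0.11). Separase and its inhibitor thus fell by similar amounts, and the same held in Su-DHL1 cells, at -0.72 ± 0.14 and -0.76 ± 0.11. CDC20, the activator that the checkpoint blocks, changed by -2.16 at 84 h. UBE2C is the ubiquitin-conjugating enzyme of the anaphase-promoting complex, and its change was -1.23 ± 0.09 at 72 h.

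Of the 9 spindle assembly genes 8 fell in the average. TACC3, which cross-links spindle microtubules, gave 50.5, 33 and 13.1 on induced arrays at 84 h and 270.5, 249 and 211 on uninduced arrays, and its induced arrays differed more among themselves than those of most genes here (-2.65 ± 0.21). NUSAP1, which bundles microtubules around chromosomes, gave 256, 322 and 294 against 1724, 1592 and 1717 and had the smallest error of this group (-2.49 ± 0.08). At 72 h NUSAP1 stood at 588 to 614 and 1449.6 to 1502 in TS cells and at 622 to 655 and 938 to 1076 in Su-DHL1 cells, again without overlap. CKAP2, a microtubule stabiliser, gave 346, 304 and 356 against 382, 428 and 318 at 84 h, overlapping groups with no call in any of the 3 settings. CKAP5, a microtubule polymerase, was called at 84 h (-0.64 ± 0.14) but not at 72 h in either line (-0.05 in both).

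For cytokinesis, ECT2, which activates RhoA at the cleavage furrow, gave 47.5, 49.5 and 51.4 on induced arrays at 84 h and 327, 251 and 239 on uninduced arrays (-2.22 ± 0.18). Its partner RACGAP1 gave 186, 180.4 and 150.2 against 613, 522 and 562 (-1.66 ± 0.12). In Su-DHL1 cells ECT2 had the largest fall of the set, 98.9, 147 and 186 against 275, 301 and 255 (-0.93 ± 0.18), with the induced arrays spread widely.

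All 7 condensation genes fell in the average. MKI67 (Ki-67), which coats mitotic chromosomes and is the usual proliferation marker in pathology, gave 113, 105 and 106 on induced arrays at 84 h and 657, 583 and 623 on uninduced arrays. NCAPG, a condensin I subunit, gave 40.1, 40.4 and 44.6 against 296, 236 and 279. The induced arrays of both genes lay close together, with log2 fold changes of -2.41 ± 0.10 and -2.41 ± 0.14. In Su-DHL1 cells MKI67 was at 211 to 255 induced and 400.2 to 471 uninduced, a change of -0.86. Its further probe sets, which were not tested, changed less, by -0.17, -0.44 and -0.30 there. In TS cells at 84 h they changed by -1.59, -1.37 and -1.31. The condensin core ATPases differed in size of change, at -2.07 ± 0.08 for SMC4 and -1.09 ± 0.16 for SMC2, and TOP2A, which untangles sister chromatids, changed by -2.46 ± 0.16.

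FOXM1, a transcription factor that activates genes of this set, gave 33.8, 22.3 and 21.6 on induced arrays at 84 h and 279, 232 and 214 on uninduced arrays (-2.78 ± 0.16). At 72 h it was at 74.7 to 115 and 239 to 316 in TS cells and at 119 to 169 and 243 to 259 in Su-DHL1 cells, with the largest gap at 84 h. MYBL2 (B-Myb) gave 185, 219.5 and 222 against 779, 578 and 701 at 84 h (-1.66 ± 0.18) but was not called in Su-DHL1 cells (0.08 ± 0.18), where the 3 induced arrays, 483, 415 and 296, lay on both sides of the uninduced 367, 365 and 373.

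**Figure D2:**
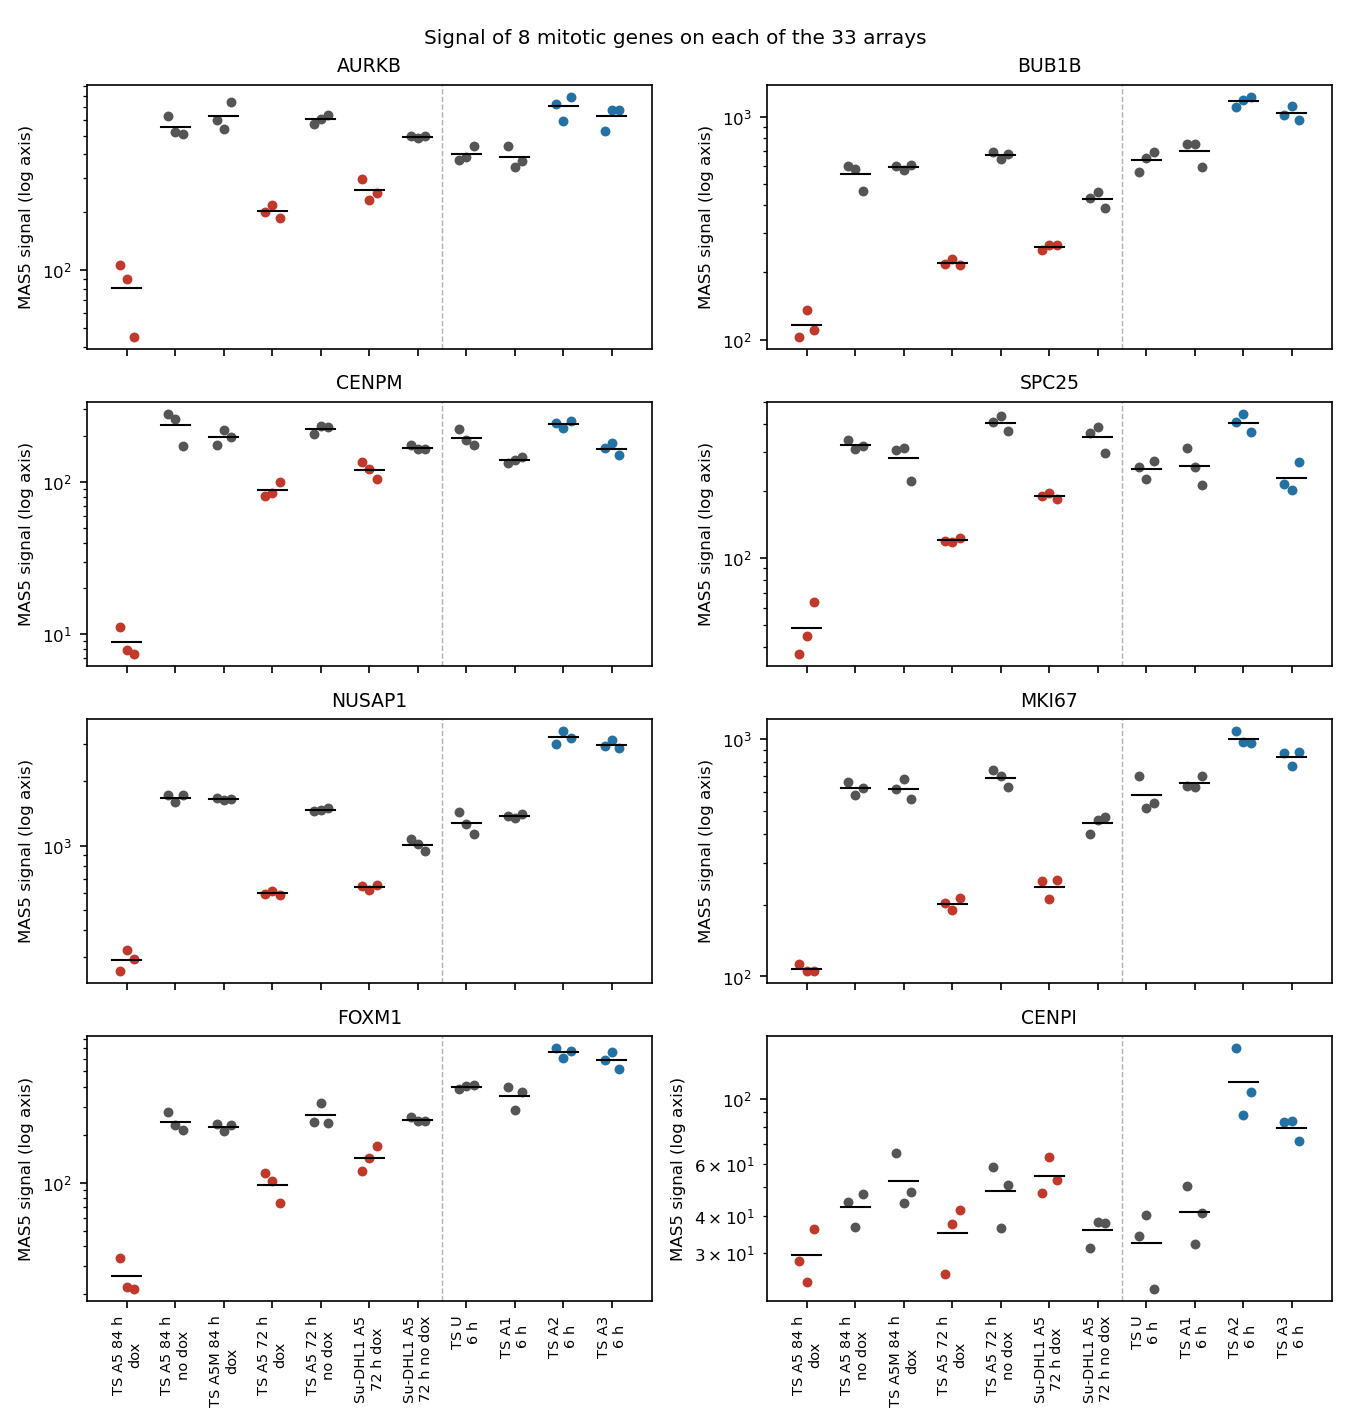
MAS5 signal (vertical axis, logarithmic) of 8 genes on each of the 33 arrays, 3 points and a line at the mean per group on the horizontal axis, with the inhibitor experiment to the right of the dashed line. Red points are induced A5, blue points A2 and A3, and grey points the other groups: red points lie lowest and blue points highest for most genes, while CENPI changed little with the hairpin and was highest with A2.

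The promoters of these genes were examined because the members moved together. RefSeq promoters on GRCh38.p14, from 250 bases before to 50 after the first listed start, were at hand for 43 of the 54 genes. The 11 others are AURKA, BUB3, TTK, KNTC1, CENPM, BIRC5, UBE2C, TPX2, TROAP, RACGAP1 and FOXM1. The letters TTTGAA, the common form of the CHR element that LIN54 of the DREAM and MYB-MuvB complexes binds, occurred on either strand between 100 bases before and 50 after the start in 28 of the 43 (65.1%). Over all 27305 promoters the share was 6.91%, and over the 7461 genes with a promoter that were tested in the hairpin experiment it was 4.09%. The second form TTTAAA occurred in 6 of 43 (13.95%, against 5.27% of all promoters). CCAAT, bound by NF-Y, occurred anywhere in the window on either strand in 30 (69.8%, against 35.7%). The E2F forms TTTCCCGC and TTTGGCGC occurred in 3 (6.98%, against 2.31%). At any listed start, of which 7 of the genes have more than 1, the count was again 28 of 43, against 8.46% of all genes. In 2 promoters TTTGAA overlapped another of these motifs. Genes with and without TTTGAA had median log2 fold changes of -2.12 and -1.98 in TS cells at 84 h.

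Among the genes whose arrays are given above, ECT2 (average -1.56) holds the element 35 bases after its start, beyond the stretches printed here. The following stretches show it in 5 others, those with the largest average change that hold it within the stretch. Each runs 5′ to 3′ on the gene's strand, from 80 bases before to 30 after the RefSeq start on GRCh38.p14, and capitals mark TTTGAA or its reverse complement TTCAAA.
SPC25, chr2:168890401-168890510 (minus strand): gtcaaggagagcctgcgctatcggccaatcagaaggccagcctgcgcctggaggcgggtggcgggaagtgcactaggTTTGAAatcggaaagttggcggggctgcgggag
MKI67, chr10:128126394-128126503 (minus strand): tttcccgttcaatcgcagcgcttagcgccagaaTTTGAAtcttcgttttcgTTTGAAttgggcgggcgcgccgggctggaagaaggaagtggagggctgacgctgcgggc
ZWINT, chr10:56361230-56361339 (minus strand): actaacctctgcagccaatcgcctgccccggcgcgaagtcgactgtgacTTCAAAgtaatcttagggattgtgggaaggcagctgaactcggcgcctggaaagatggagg
ESPL1, chr12:53268219-53268328 (plus strand): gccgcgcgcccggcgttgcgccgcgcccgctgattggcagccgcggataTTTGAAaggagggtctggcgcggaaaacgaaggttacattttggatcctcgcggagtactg
MAD2L1, chr4:120066819-120066928 (minus strand): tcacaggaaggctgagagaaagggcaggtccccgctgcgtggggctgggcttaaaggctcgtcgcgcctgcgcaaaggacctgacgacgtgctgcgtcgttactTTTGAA
MKI67 holds the element in 2 places before its start, ZWINT and ESPL1 hold it at the same distance from theirs in opposite orientations, SPC25 holds it across the start, and MAD2L1 holds it after the start. A match shows only that the letters are there, and binding was not measured.

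The response was deeper at 84 h than at 72 h in TS cells. At 84 h 50 genes were called lower (18.8% of all genes were) with a median log2 fold change of -2.07, and at 72 h 49 (15.2%) with -1.09. The median gene kept 21.95% of its uninduced signal at 84 h and 45.95% at 72 h. The difference between the times was itself tested: 51 of 54 genes had the more negative change at 84 h, and 32 were called, against 0.978% of all genes, 89 in number. The median difference was -0.85 and that of all genes -0.02. The uninduced arrays gave like levels at both times, with array medians over the 54 genes of 8.73 to 8.84 and 8.64 to 8.80 on the log2 scale, while induced arrays lay at 6.85 to 6.86 at 84 h and 7.70 to 7.77 at 72 h. ALK was at 248 and 330.2 in the induced groups, a difference of response of -0.56 ± 0.15 that was not called (adjusted p = 0.0795 by limma). The labels do not say whether the times were run together, so time and experiment cannot be told apart. The 72 h arrays also enter the comparison of the lines.

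CENPM had the largest such difference, -2.39 ± 0.22 (adjusted p = 1.77e-06 by limma), followed by CENPE (-1.95 ± 0.25), ERCC6L (-1.62 ± 0.30), NCAPG (-1.48 ± 0.20) and FOXM1 (-1.42 ± 0.23). The signals of NCAPG show the step: 40.1, 40.4 and 44.6 induced at 84 h, 131, 145 and 163 induced at 72 h, and 236 to 296 and 244 to 332 on the uninduced arrays. No array of the 84 h induced group overlapped the 72 h induced group. CENPM and ERCC6L are near the floor at 84 h, and the difference of ERCC6L was not called with an added constant of 64 (-0.68, adjusted p = 0.0808 by limma). SKA1, which couples kinetochores to microtubule ends, was an exception at 0.29 ± 0.31: it gave 21.7, 18.5 and 8.8 at 84 h and 11.6, 22.7 and 26.2 at 72 h on induced arrays, near the floor at both times, against 76.3 to 115 and 133.3 to 142 uninduced. CENPC and CKAP2 were the other 2 genes with a difference above 0, neither of them called.

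Su-DHL1 cells showed a shallower fall. There 43 genes were called lower (10.7% of all genes), all of them among those called in TS cells at both times, with a median of -0.57 and a median of 67.0% of the uninduced signal kept. The 11 that were not called were BUB1, CENPC, CENPI, CENPE, SKA1, INCENP, CDCA3, CKAP2, CKAP5, NCAPH and MYBL2. For 52 of 54 genes the log2 fold change was higher than in TS cells at 72 h, and this difference was called for 14, against 1.68% of all genes. The 14 were BUB1B, SPC25, ZWINT, SKA1, BIRC5, UBE2C, ESPL1, NUSAP1, HMMR, RACGAP1, MKI67, SMC4, NCAPH and MYBL2. The median difference was 0.57. With the ACTB ratio as a covariate 4 were called and the median was 0.50, and 9 were called without uninduced TS replicate 1 or 2 at 72 h, without induced Su-DHL1 replicate 2, or without uninduced Su-DHL1 replicate 3. The fall of ALK differed between the lines by 0.24 ± 0.15, which was not called (adjusted p = 0.563 by limma).

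SKA1 differed most, by 1.72 ± 0.31 (adjusted p = 0.00136 by limma). Its uninduced signals differed too: 133.3, 142 and 138 in TS cells and 52.3, 48.9 and 39.7 in Su-DHL1 cells at 72 h. Its induced signals were low in both lines, 11.6, 22.7 and 26.2 in TS cells and 28.0, 31.4 and 24.7 in Su-DHL1 cells. BIRC5 (0.97 ± 0.21), MYBL2 (0.97 ± 0.26), ZWINT (0.97 ± 0.17) and BUB1B (0.87 ± 0.15) followed. MYBL2 was called by a narrow margin (adjusted p = 0.0423), and it was not called when any of 9 single arrays was left out. BIRC5 was not called when all its probe sets were averaged (0.51, adjusted p = 0.0941 by limma). With the ACTB ratio as a covariate BIRC5 (adjusted p = 0.214 by limma), MYBL2 (0.124), ZWINT (0.0567) and BUB1B (0.0525) were not called. In BUB1B the induced arrays of the lines were near each other, 217 to 229.5 in TS and 252 to 267 in Su-DHL1 cells, and the uninduced arrays far apart, 649 to 694 and 389.6 to 461.

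Uninduced Su-DHL1 cells had lower signals than uninduced TS cells at 72 h for 17 of the 54 genes and higher ones for none, beside 10.4% of all genes called lower, with a median of -0.26. SKA1 (-1.37 ± 0.22), MYBL2 (-0.97 ± 0.18), HMMR (-0.73 ± 0.13), BUB1B (-0.64 ± 0.11) and MKI67 (-0.63 ± 0.10) differed most. MKI67 gave 739, 702 and 626 in TS cells and 400.2, 455 and 471 in Su-DHL1 cells, without overlap. Of these 5 genes, SKA1, MYBL2 and BUB1B are also among the 5 with the largest difference of response, and both comparisons use the same uninduced arrays. With the ACTB ratio as a covariate 10 of the 54 genes were called and the median was -0.25. Without uninduced TS replicate 3 at 72 h 11 were called, and without uninduced Su-DHL1 replicate 2, 10.

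The mutated hairpin left the set near its uninduced level. Against A5M, induced A5 lowered 51 genes (20% of all genes were called lower) with a median of -2.08; this comparison uses the same induced arrays as the one against uninduced cells. CENPM (-3.39), TACC3 (-2.94), AURKB (-2.87), ERCC6L (-2.76) and FOXM1 (-2.69) led. CENPI was called in this comparison (-0.65 ± 0.22, adjusted p = 0.0183 by limma) though not against uninduced cells. CKAP2 was the only gene above 0 (0.08). Between A5M and uninduced A5, limma called none of the 54 genes, where 3.76% of all genes were called lower, and 2 of the 54 had an unadjusted p under 0.05. The median was -0.02, and 95% intervals lay within 0.5 either side of 0 on the log2 scale for 36 genes. SKA1 (0.48 ± 0.22, adjusted p = 0.222 by limma) and INCENP (0.43 ± 0.31, adjusted p = 0.492) had the largest differences. SKA1 gave 139, 125 and 149 with A5M and 115, 99.2 and 76.3 in uninduced cells, groups that do not overlap.

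After 6 h with an ALK inhibitor the same genes moved the other way. With A2 against A1, 42 of 54 genes rose and none fell, with a median log2 fold change of 0.65 beside 0.02 over all 8587 genes tested, of which 19.1% were called higher. With A3 against A1, 34 rose (18.5% of all genes) with a median of 0.45. Against U the counts were 46 for A2 (19.8% of all genes) and 39 for A3 (18.8%), with medians of 0.71 and 0.53. These comparisons share arrays in pairs. A typical gene stood at 158% of its A1 signal with A2 and 138% with A3. Array medians over the 54 genes ran from 8.67 to 8.78 in U and 8.62 to 8.82 with A1, and from 9.39 to 9.53 with A2 and 9.24 to 9.36 with A3, so no inhibitor array overlapped a control array. With the ACTB ratio as a covariate 20 genes were called with A3 over A1 and 34 with A3 over U, with medians of 0.51 and 0.55.

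**Figure D3:**
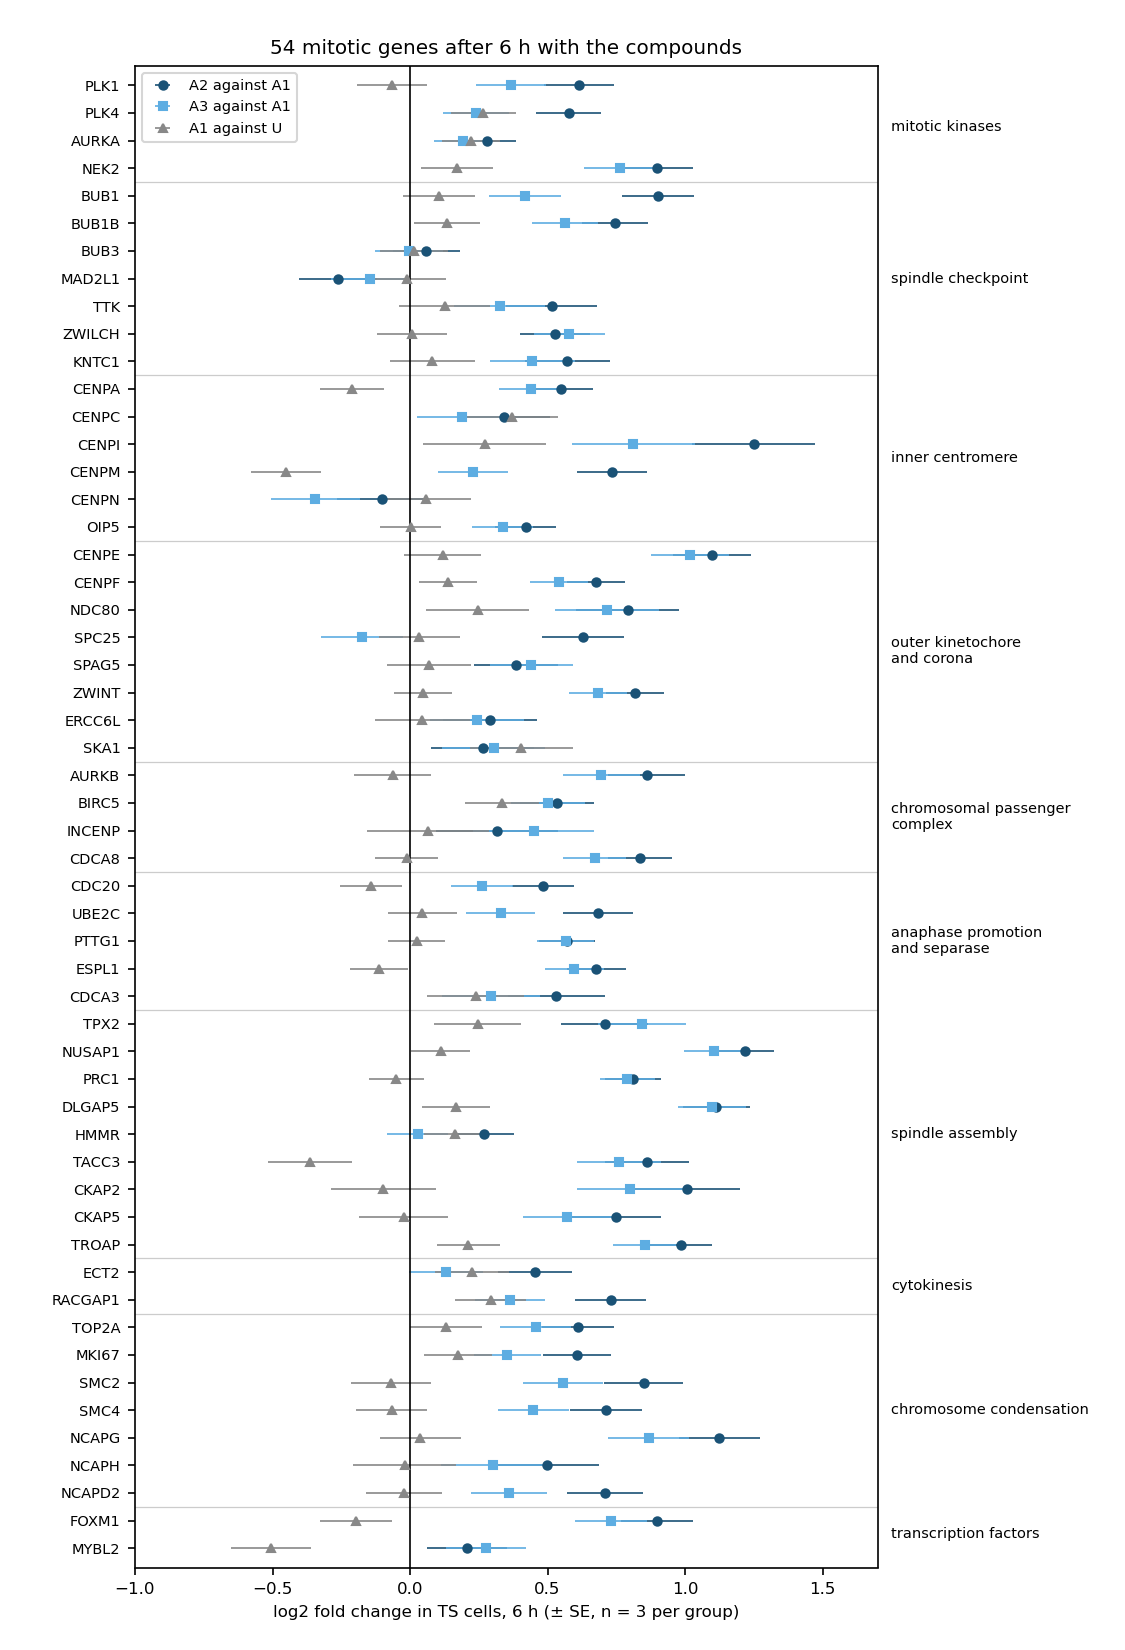
Log2 fold change (± SE, n = 3 arrays per group) of each of the 54 genes, by role on the vertical axis, for A2 against A1, A3 against A1 and A1 against U. Circles (A2) and squares (A3) lie mostly above 0, at medians of 0.65 and 0.45, while triangles (A1) lie around 0 at a median of 0.05.

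The largest rise was that of CENPI, with signals of 34.1, 40.4 and 22.6 in U and 50.4, 32.0 and 40.9 with A1. Its arrays read 148, 88.3 and 105 with A2 and 83.2, 83.9 and 72.0 with A3. All A2 and A3 arrays were above all control arrays (A2 against A1 1.25 ± 0.22, adjusted p = 3.45e-04 by limma). NUSAP1 gave 1368, 1339 and 1411 with A1, 3007, 3445 and 3186 with A2 and 2919, 3112 and 2869 with A3. The groups were far apart, at 1.22 ± 0.11 with A2 and 1.10 ± 0.11 with A3. DLGAP5, a spindle protein and substrate of AURKA, gave 418, 302 and 359.9 with A1, 736, 772 and 853 with A2 and 826, 790.4 and 720.0 with A3, about the same with both inhibitors (1.11 and 1.10). CENPE gave 139, 172 and 136, 358, 312 and 320.5 and 288, 288 and 364 in the same order (1.10 and 1.02). NCAPG gave 363, 241 and 297, 735, 586 and 665 and 599.7, 483 and 574 (1.12 and 0.87). Neither gene's inhibitor arrays reached down to its A1 arrays. TROAP, which bipolar spindles need, gave 315, 366 and 361 with A1 and 619, 672 and 616 with A3 (0.85 ± 0.11), and TPX2, which activates AURKA on the spindle, was 1.09 ± 0.16 with A3 against U.

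By role, 8 of 9 spindle assembly genes rose with A2 over A1, as did all 5 of anaphase promotion, 6 of 7 of condensation, 5 of 7 checkpoint genes, 5 of 8 of the outer kinetochore, 4 of 6 centromere genes, 3 of 4 kinases, 3 of 4 passenger complex genes, both cytokinesis genes and FOXM1. FOXM1 gave 398, 287 and 374 with A1 and 699.5, 612 and 672 with A2 (0.90 ± 0.13), and BUB1B 757, 751 and 594 and 1108, 1190.1 and 1231 (0.75 ± 0.12). MKI67 gave 636, 631 and 699 and 1082, 969 and 959.6 (0.61 ± 0.12), without overlap like the others. AURKB rose (0.86 ± 0.14), whereas AURKA just missed the threshold (0.28 ± 0.10, adjusted p = 0.0503 by limma). The further probe sets of AURKA, which were not tested, differed by 0.42 and, on a dim one, by -0.03. In all 4 comparisons of an inhibitor with A1 or U, 30 genes rose, beside 11.5% of all genes. The 7 that rose in none were BUB3, MAD2L1, CENPN, ERCC6L, INCENP, NCAPH and MYBL2. MAD2L1 gave 643, 425 and 529 with A1 and 471, 405 and 434 with A2, overlapping groups (-0.26 ± 0.14, adjusted p = 0.174 by limma). BUB3 gave 1891, 2238 and 2490.0 and 2387, 2294 and 2180.0 (0.06 ± 0.12). This rests on the probe set chosen. Its further probe sets, which were not tested, differed by 0.31, 0.37 and -0.07 with A2 over A1. With A2 over U the same probe sets differed by 0.50, 0.66 and 0.32.

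Set side by side, 40 genes were lower in TS cells after 84 h of the ALK hairpin and higher after 6 h of A2 over A1, and 32 likewise for A3, beside 3.02% and 2.39% of the 8481 genes tested in both experiments. The experiments share no array. Of the 54 genes, 28 both rose in all 4 inhibitor comparisons and fell with the hairpin at 84 h, beside 1.7% of the genes tested in both experiments. These were 28 of the 30 genes that rose in all 4, but 50 of all 54 fell at 84 h. Over all genes, 985 of 8587 rose in all 4, and 144 of the 8481 tested in both experiments did both. The sizes did not run together: over the 54 genes, which are not independent replicates, the Pearson correlation of the log2 fold changes was -0.01 for A2 and 0.05 for A3. CENPI and CKAP2 rose with A2 and were not called with the hairpin against uninduced cells at 84 h. On the probe sets chosen, 10 genes, among them MAD2L1, BUB3, CENPN and ERCC6L, fell with the hairpin and were not called with A2. The experiments differ in agent and in time, 6 h against 72 or 84 h, and these cannot be told apart. Genes with and without the letters TTTGAA in the promoter had median log2 fold changes of 0.62 and 0.71 with A2 over A1.

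**Figure D4:**
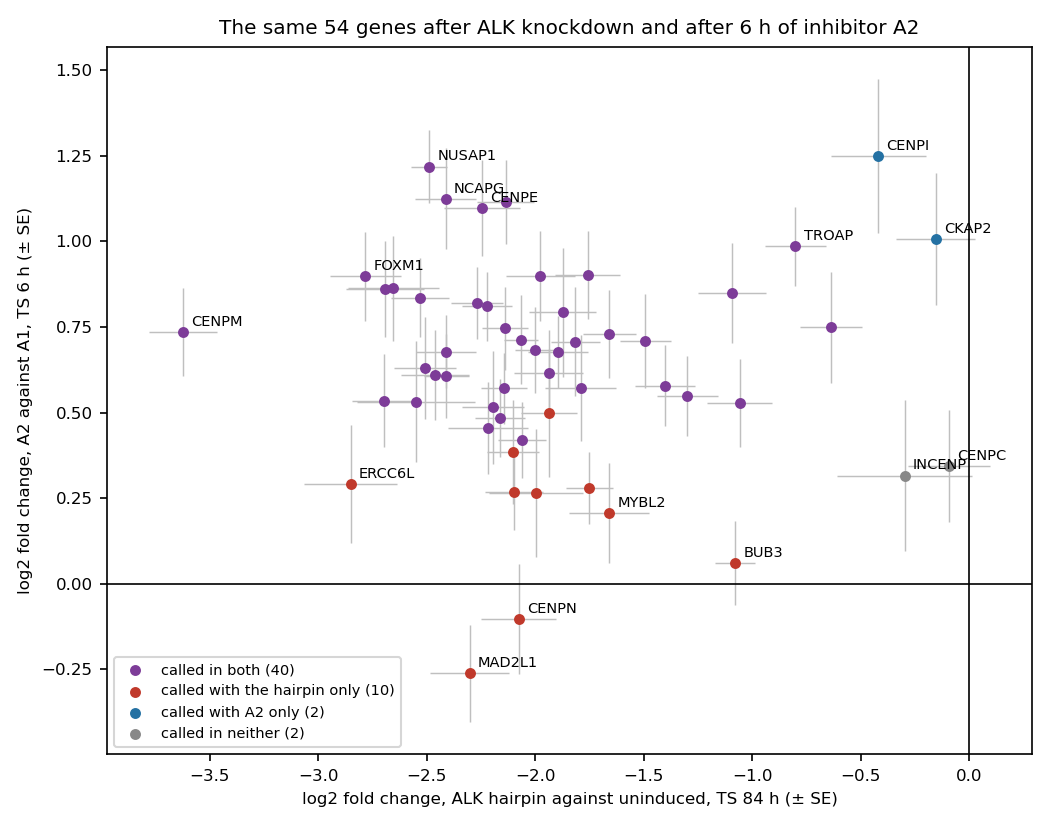
Log2 fold change of the 54 genes after 84 h of the ALK hairpin in TS cells (horizontal axis, induced against uninduced) and after 6 h of A2 against A1 (vertical axis), with SE bars and 3 arrays per group. Most points lie in the upper left, where 40 genes are called in both; MAD2L1 and CENPN lie below 0 on the vertical axis, and CENPI and CKAP2 lie high near 0 on the horizontal axis.

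The controls and the inhibitors were also compared among themselves. Of all 8587 genes tested, 2 (0.0233%) were called higher and 1 lower with A1 against U. There limma called none of the 54 genes, and 8 of the 54 had an unadjusted p under 0.05. The median was 0.05 and the 95% intervals of the 54 genes reached from -0.81 to 0.80. MYBL2 (-0.51 ± 0.15, adjusted p = 0.271 by limma) and CENPM (-0.45 ± 0.13, adjusted p = 0.258) had the largest differences. MYBL2 gave 1301, 1283 and 1257 in U and 1027, 815 and 867 with A1, and for CENPM A2 was called against A1 (0.74) but not against U (0.28, adjusted p = 0.0961).

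The log2 signal was lower with A3 than with A2 for 47 of the 54 genes, with a median difference of -0.15. SPC25 was the 1 gene called (0.0932% of all genes were called lower): it gave 310.3, 257 and 213 with A1, 406, 444 and 366 with A2 and 216, 201 and 269 with A3, called with A2 against A1 and not with A3. The difference of -0.80 ± 0.15 had an adjusted p of 0.04 by limma, and it was not called when any single array was left out. The next largest differences, such as CENPM (-0.51 ± 0.13) and BUB1 (-0.48 ± 0.13), were not called. The 95% intervals lay within 0.5 either side of 0 for 32 genes and between -1.12 and 0.60 over all 54. Doses (300 nM) and time (6 h) were the same for both.

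A second list of 79 other mitotic genes gave a wider mix. Of these, 61 had a probe set and 59 were tested: in the average hairpin response 37 fell and 9 rose (21.7% and 29.1% of all genes), with a median of -0.45. All 3 condensin II genes fell (median -0.89), as did 24 of 36 other kinetochore, spindle and mitotic genes (6 rose, median -0.57). Of 11 genes of the anaphase-promoting complex and its regulators, FBXO5 among them, 5 fell and 2 rose (median -0.18). Of 9 genes of cohesin and its regulators, 5 fell and 1 rose (median -0.24). FBXO5 (EMI1), an inhibitor of the anaphase-promoting complex, fell by 1.91 on the log2 scale, CENPU by 1.74, PBK by 1.66 and HJURP, the chaperone of CENPA, by 1.64. MAD1L1, the partner of MAD2L1 at the kinetochore, rose by 1.26 ± 0.09 while MAD2L1 fell. The cohesin loader NIPBL (0.48), ANAPC13 (0.41) and the microtubule protein CLASP1 (0.35) also rose. With the ACTB ratio as a covariate NIPBL (0.52, adjusted p = 0.153 by limma) and CLASP1 (0.43, adjusted p = 0.0748) were not called. With A2 over A1, 27 of the 59 rose and 1 fell (19.1% and 14.3% of all genes), and the median was 0.31.

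Further probe sets of the same genes were read as a check on the choice of probe set. There were 29 of them, for 17 genes. In the average hairpin response 28 of the 29 had a negative difference, and with A2 over A1 24 had a positive one. Of the 29, 15 reached the 40th percentile on all arrays. Only direction was checked, and sizes could differ. BIRC5 averaged -0.72 and -0.73 on its further probe sets against -1.61 on the main one, and MKI67 -0.73, -0.99 and -0.74 against -1.66. CENPN changed by -0.31 against -2.08 at 84 h, whereas NUSAP1 averaged -1.66 against -1.47. The main probe sets of 43 of the 54 genes reached their array's 40th percentile on all 33 arrays, so the other 11 genes were dim on some arrays. They include the genes near the floor after knockdown.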

How the data were processed

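Total RNA of 33 samples was measured on 1 Affymetrix HG-U133A array each. What the authors deposited is MAS5 signal, a linear intensity for every probe set, made with MAS5 per the submitters' processing notes. For MAS5, no version or setting is given in the sources used here. The mean after trimming 2% at each end was 200.06 to 200.08 on every array, so the deposited scaling was kept. Such scaling cannot show a change in total RNA. The number of arrays, 3 per group, limits the precision.

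Of 22283 probe sets, 68 controls were left out. Of the rest, 19065 had 1 gene symbol in the platform annotation, 1043 had several and 2107 none; 19053 matched the GRCh38.p14 gene table, which changed no symbol. A constant of 11 (the 20th percentile over all signals, 10.8, rounded) was added before log2. Probe sets at or above the 40th percentile of their array on 3 or more arrays of a fit were kept, and the one with the highest mean stood for its gene. limma 3.58.1 in R 4.3.3 (lmFit, eBayes with trend) fitted the 21 hairpin arrays (9097 genes, 14 residual and 8.88 prior degrees of freedom) and the 12 inhibitor arrays (8587 genes, 8 and 8.80) separately, with a mean per group. P-values are two-sided. The fit was tested on simulated data. Figures used matplotlib 3.10.9 in Python 3.11.15.

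The members and lists were chosen with earlier results of these data known. Arrays are given one by one for the 2 members per role with the largest average change among called genes whose groups did not overlap in any setting. Other comparisons name up to 5 called genes by size of change, and 2 genes where no gene was called. Further genes were named after their values were seen. Alternatives were other added constants, filters, scaling, probe set rules and models, the ACTB ratio as a covariate, the replicate number as a block, and each array left out in turn.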

Additional observations from a re-analysis of the deposited data

Results flagged for a closer look

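The response to the ALK hairpin differed between the lines for 14 genes of the set and between the times for 32. The difference itself was tested (limma, adjusted over all genes tested). Over all genes, 1.68% were called higher between the lines and 0.978% lower between the times. With the ACTB ratio as a covariate fewer genes of the set were called between the lines. At 72 h the log2 fold change was higher in Su-DHL1 than in TS cells by 1.72 for SKA1. It was higher by 0.97 for BIRC5, MYBL2 and ZWINT and by 0.87 for BUB1B. With the ACTB ratio as a covariate BIRC5, MYBL2, ZWINT and BUB1B were not called. Between 84 h and 72 h in TS cells, the log2 fold change differed by -2.39 for CENPM, -1.95 for CENPE, -1.62 for ERCC6L, -1.48 for NCAPG and -1.42 for FOXM1. In each case 3 arrays per group were compared, and the 5 genes named for each difference are those with the largest values among the called ones. No explanation was tested for them.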

How the results depend on the processing

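The alternatives were run for the median of each comparison and for 90 gene results, those chosen by the rule for named genes. Their direction was the same throughout, with 2 exceptions that were not called under the main settings: CKAP2 in the average response went from -0.23 to 0.22 with the ACTB ratio as a covariate, and the median of A5M against uninduced A5 went from -0.02 to 0.02 without uninduced replicate 1 and to 0.03 without A5M replicate 3. The count of genes called stayed within 1.5 times its main value in all comparisons except 5. The smaller response in Su-DHL1 than in TS cells was called for 14 genes, for 4 with the ACTB ratio as a covariate, and for 9 to 14 when arrays were left out in turn. Uninduced Su-DHL1 against uninduced TS cells gave 17, 10 with the covariate and 10 to 14 with arrays left out. A3 against A1 gave 34 and 20 with the covariate. A5M against uninduced A5 gave 0, and 0 to 1 with arrays left out. A3 against A2 gave 1, and 0 with no filter, with averaged probe sets, without the trend, with the replicate block, with the covariate, with only the compared groups in the fit, and with any array left out. With arrays left out, the average response kept 50 to 52 genes, Su-DHL1 cells 30 to 40 and A2 against A1 40 to 43. Correlations of deviations from the group means ran from -0.206 to 0.108 for arrays of the same replicate number. For arrays of different number they ran from -0.289 to 0.330. Such values cannot show whether same-numbered arrays were handled together. With the replicate block 50 genes were called at 84 h, 30 for the difference between the times and 43 for A2 against A1, and apart from A3 against A2 it moved no count by over 1.5 times. Quantile normalization moved the median of all genes by under 0.1. Dim probe sets limit what can be said of CENPI, INCENP, SKA1, and of CENPM and ERCC6L at 84 h.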
